A study of Homo sapiens with 2 samples.

Results

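The p53 pathway was read as a list of 30 genes: inhibitors of p53 and genes that p53 is known to switch on. A gene was measured where a probe had it as its single gene symbol in the platform annotation, which held for 28 of the 30 genes through 42 probes; BTG2 and FDXR had no probe named there. A probe was called detected on an array at a detection p-value under 0.01, and 24 of the 30 genes were detected on at least 1 array, among 10565 genes in the whole series. The series used THP-1 cells, a line grown from a human acute monocytic leukaemia, and read total RNA of 2 engineered derivatives on single-colour Illumina arrays. One derivative, called shLY6E, expressed a short hairpin RNA against LY6E; the other, called shCtrl, expressed a scrambled hairpin. Both were kept under puromycin at 400 ng per ml, and per the labels each group is 1 stably engineered derivative read on 1 array. The data therefore hold no spread between samples, no difference below has a replicate check, and no p-value was computed for any difference.

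The transcription factor p53 is stabilised when DNA is damaged or when ribosome assembly or nutrient supply fails, and it then activates genes of growth arrest, DNA repair, metabolism and cell death. MDM2 and MDM4 hold it in check, and because p53 itself activates MDM2 the pathway forms a feedback loop. THP-1 is reported to lack functional p53.

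Promoter windows from RefSeq (build GRCh38.p14) run from 250 bases before to 50 bases after a start site of the gene. They are shown for genes with the largest differences in each direction among members detected on both arrays, where a window was available. A pair of genes whose windows hold a p53 site is shown too. RRM2B, TP53INP1 and GADD45A had no window available and are named only. Capitals mark matches to the p53 half-site consensus of 10 bases, which has a run of purines, a core that opens with C and closes with G, and a run of pyrimidines, and which reads the same on both strands. Pairs of half-sites up to 3 bases apart, with up to 2 mismatches in all and both cores keeping C and G, are marked too and can overlap single matches. The windows of DRAM1 and MDM4, the genes furthest above control in shLY6E, came first, then those of ZMAT3, TP53I3 and TIGAR, which were lower. DDB2 and MDM2 are shown for their sites.
DRAM1 promoter, chr12:101877330-101877629, plus strand: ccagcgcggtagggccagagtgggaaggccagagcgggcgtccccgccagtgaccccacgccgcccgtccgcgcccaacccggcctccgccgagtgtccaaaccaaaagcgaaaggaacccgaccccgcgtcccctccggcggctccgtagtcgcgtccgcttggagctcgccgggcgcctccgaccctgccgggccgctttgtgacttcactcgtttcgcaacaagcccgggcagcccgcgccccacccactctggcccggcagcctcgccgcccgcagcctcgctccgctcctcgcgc
MDM4 promoter, chr1:204516156-204516455, plus strand: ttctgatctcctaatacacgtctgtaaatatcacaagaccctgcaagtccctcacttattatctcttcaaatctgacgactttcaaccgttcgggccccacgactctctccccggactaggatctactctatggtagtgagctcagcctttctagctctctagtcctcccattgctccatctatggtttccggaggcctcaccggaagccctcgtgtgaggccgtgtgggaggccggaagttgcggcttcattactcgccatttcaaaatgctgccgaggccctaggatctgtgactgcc
ZMAT3 promoter, chr3:179071760-179072059, minus strand: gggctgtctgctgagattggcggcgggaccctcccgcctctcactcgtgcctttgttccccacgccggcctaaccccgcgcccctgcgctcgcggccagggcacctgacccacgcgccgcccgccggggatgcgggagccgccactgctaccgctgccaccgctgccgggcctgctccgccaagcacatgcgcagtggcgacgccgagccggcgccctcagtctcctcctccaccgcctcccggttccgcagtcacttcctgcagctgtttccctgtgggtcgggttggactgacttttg
TP53I3 promoter, chr2:24084785-24085084, minus strand: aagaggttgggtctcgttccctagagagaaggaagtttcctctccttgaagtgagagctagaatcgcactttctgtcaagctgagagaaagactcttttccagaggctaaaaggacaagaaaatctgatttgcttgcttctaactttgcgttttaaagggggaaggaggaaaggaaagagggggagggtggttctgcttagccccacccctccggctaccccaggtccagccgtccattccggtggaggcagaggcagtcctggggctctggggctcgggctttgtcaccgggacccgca
TIGAR promoter, chr12:4320963-4321262, plus strand: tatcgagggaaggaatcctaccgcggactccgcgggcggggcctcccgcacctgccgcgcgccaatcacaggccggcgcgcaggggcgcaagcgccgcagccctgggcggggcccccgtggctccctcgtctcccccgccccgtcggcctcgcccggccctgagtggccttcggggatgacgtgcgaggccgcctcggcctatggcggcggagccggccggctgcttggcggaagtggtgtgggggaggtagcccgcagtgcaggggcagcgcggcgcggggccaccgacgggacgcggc
DDB2 promoter, chr11:47214724-47215023, plus strand: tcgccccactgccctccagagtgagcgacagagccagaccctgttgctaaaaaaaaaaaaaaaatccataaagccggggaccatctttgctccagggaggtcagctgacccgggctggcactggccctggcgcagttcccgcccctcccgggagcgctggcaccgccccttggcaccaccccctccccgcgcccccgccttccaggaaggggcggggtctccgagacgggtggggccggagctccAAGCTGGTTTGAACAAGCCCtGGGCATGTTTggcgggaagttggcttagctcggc
MDM2 promoter, chr12:68808767-68809066, plus strand: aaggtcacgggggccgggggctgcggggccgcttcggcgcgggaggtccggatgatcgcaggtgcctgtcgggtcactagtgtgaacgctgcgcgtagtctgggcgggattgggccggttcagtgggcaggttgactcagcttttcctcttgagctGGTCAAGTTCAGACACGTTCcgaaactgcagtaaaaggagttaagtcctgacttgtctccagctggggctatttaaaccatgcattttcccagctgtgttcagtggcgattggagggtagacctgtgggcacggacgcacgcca

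Of 26 member genes with a window, 6 held an exact half-site and 3 held a pair; over all 27305 genes with a window the shares were 8.06% and 1.23%, against 23.1% and 11.5% of the members. DDB2 held the pair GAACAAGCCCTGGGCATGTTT with 0 mismatches and a spacer of 1 base, beginning 5 bases after the start. MDM2 held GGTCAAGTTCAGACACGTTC with 2 mismatches, 94 bases before the start site of its downstream, internal promoter. AEN held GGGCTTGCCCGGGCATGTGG, also with 2 mismatches. EI24 held the single half-site GGGCATGCCC, SESN1 held GGACAAGTCT, PLK2 held AGACTTGCTT and FDXR held GGGCTTGCCC. No window of DRAM1, MDM4, ZMAT3, TP53I3 or TIGAR held a match (0 half-sites). The members were listed as known p53 targets, so these shares are a description. A match is a run of letters and not a measured site, and these windows leave out most intron sequence and distant elements.

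LY6E, the targeted gene, had a deposited intensity of 253 in shLY6E and 1049 in shCtrl and was 3.67-fold lower in shLY6E. The arrays detected 16378 and 16283 of 47321 probes, and the lowest detected intensity was 106 in shLY6E and 129 in shCtrl. All 9 monocytic line markers with a named probe were detected on both arrays, and of 9 markers of other cell types 1 was, PECAM1, which monocytic cells also express. Of the monocytic markers, CD14, a surface receptor for lipopolysaccharide, was 10.3-fold higher in shLY6E, the lysozyme gene LYZ 5.25-fold and the receptor gene CSF1R 1.93-fold. The other detected probes of CD14 and LYZ gave smaller log2 differences, 2.33 and 1.36 against 3.37 and 2.39. Of the 9 markers 7 lay above 0 and 2 below, ITGAM at -0.48 and CEBPA at -0.28, and the median log2 difference was 0.35. The part of this marker shift in the differences of the p53 pathway genes was not tested.

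The p53 pathway genes did not move as a block. A difference is the log2 normalized intensity in shLY6E minus that in shCtrl. Of the 24 detected genes 15 lay above 0 and 9 below, and the median was 0.03, against -0.04 for all 10565 detected genes. At least 1.5-fold higher were 4 genes, DRAM1, MDM4, RRM2B and SESN2, and at least 1.5-fold lower were 4, TP53INP1, ZMAT3, TP53I3 and DDB2. The corresponding shares of all detected genes were 6.55% upward and 9.63% downward. With the arrays scaled to a common median instead of quantile-normalized, the split of the members was 2 higher (8.33%) and 7 lower (29.2%), against 2.43% and 32.9% of all genes, so that the share of lower members was near that of all genes. That setting moved the median of all genes by -0.38, and relative to the median of all genes the members had a median of 0.03. At least 2-fold higher were 2 members, DRAM1 and MDM4, and 0 members were at least 2-fold lower, against 2.27% and 2.55% of all genes. In bulk RNA, fewer cells that use a gene and less of its RNA in each cell cannot be told apart.

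**Figure D1:**
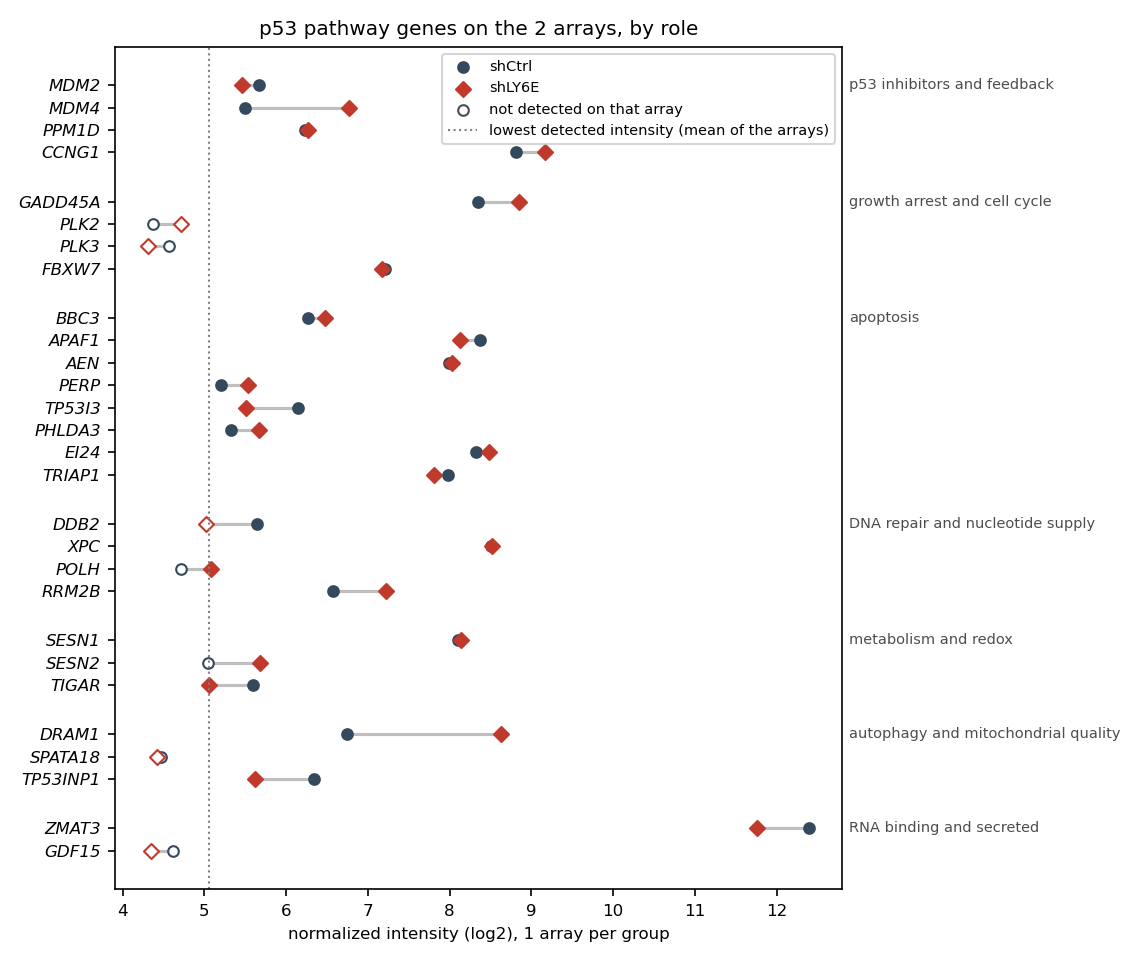
Normalized log2 intensity (horizontal axis) of the 28 p53 pathway genes with a named probe in shCtrl (circles) and shLY6E (diamonds), grouped by role, with 1 array per group. Open symbols were not detected on that array, and PLK2, PLK3, SPATA18 and GDF15 were open on both. Levels of different genes come from different probes and are not comparable.

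Together, 8 of the 24 detected members (33.3%) lay at least 1.5-fold apart in either direction, against 16.2% of all detected genes. The share depended on the processing: without background correction it was 8.33% of the members against 5.78% of all genes, and with a larger offset of 50 it was 12.5% against 9.92%. With median scaling it was 37.5% against 35.4%, so under these 3 settings the members' share lay near that of all genes. The median size of the difference, ignoring its sign, was 0.34 for the members and 0.24 for all genes. The only measure of error on these arrays was that between probes of a gene, whose differences had a within-gene SD of 0.28 over 2254 genes for which both arrays detected more than 1 probe. It covers neither cell culture nor hybridisation.

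**Figure D2:**
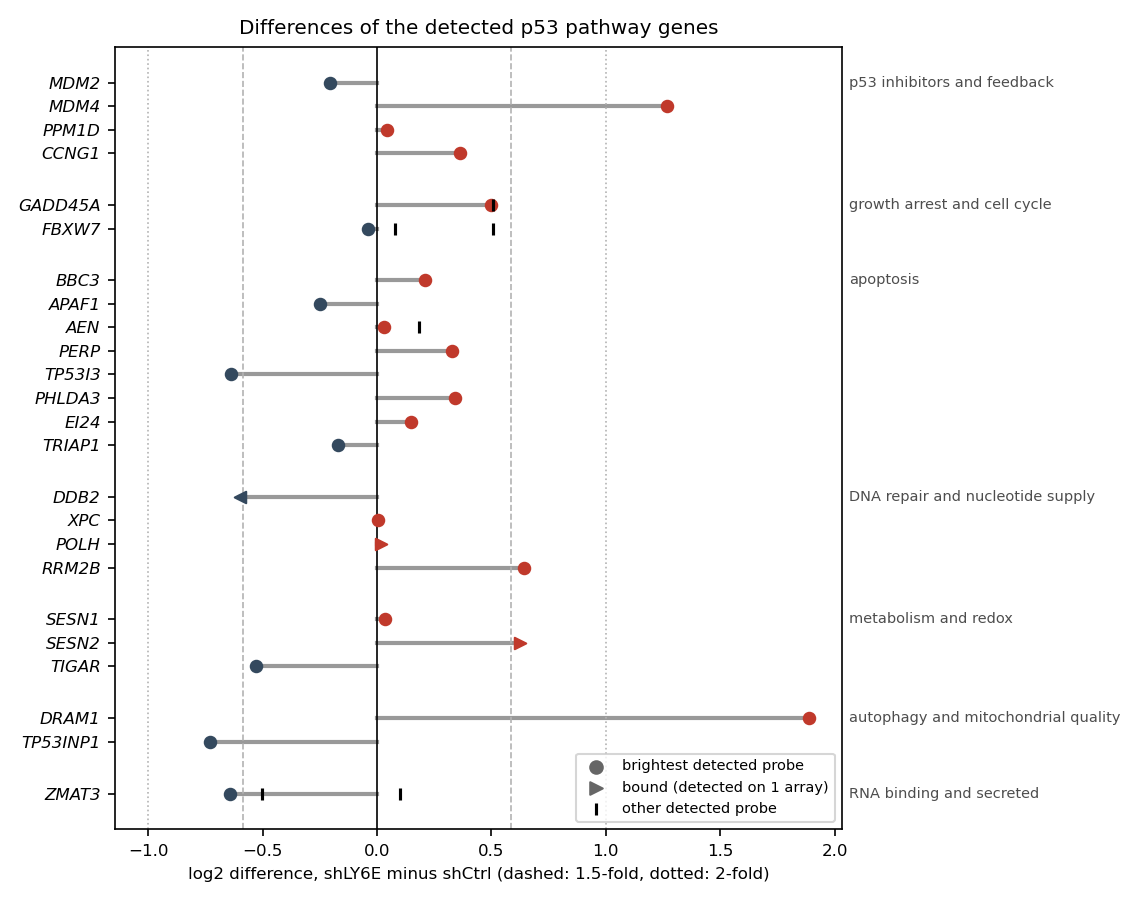
Log2 difference, shLY6E minus shCtrl, of the 24 detected p53 pathway genes by role. Dots are the brightest detected probe, arrowheads are bounds for genes detected on 1 array, ticks are other detected probes of the gene. DRAM1 (1.89) and MDM4 (1.27) pass the dotted 2-fold line.

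Among the inhibitors of p53, MDM4 stood apart. MDM4, which binds p53 and blocks its activity, had a deposited intensity of 165 in shLY6E and 144 in shCtrl, and after background correction and normalization its log2 levels were 6.77 and 5.50. The difference of 1.27, or 2.41-fold, ranked 129 from the highest of the 9364 genes detected on both arrays. The shCtrl intensity lay close to the detection limit, with a detection p-value of 0.0013, and the difference was 0.52 (1.44-fold) without background correction. MDM2, the ubiquitin ligase that marks p53 for degradation, stood at 115 and 151, with log2 levels of 5.46 and 5.67 and a difference of -0.21. The difference between MDM4 and MDM2 was that of a single probe each. PPM1D, a phosphatase that turns off p53 after damage, had intensities of 141 and 180 and a difference of 0.04. CCNG1, which encodes cyclin G1 and dampens p53, had intensities of 538 and 631 and a difference of 0.36; with median scaling it was -0.11, or 0.31 relative to the median of all genes.

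Of the 5 members listed under growth arrest, 2 were detected, and both were within 1.5-fold. BTG2, also of this role, had no probe named. CDKN1A, a growth arrest gene that is not a member, is given below with the other p53 targets. GADD45A, a stress sensor that slows the cell cycle, was read by 2 detected probes that gave nearly the same value. Its brighter probe stood at 444 in shLY6E and 485 in shCtrl with a difference of 0.50, and the other probe gave 0.51. FBXW7, the substrate receptor of a ubiquitin ligase that removes cyclin E and MYC, was read by 3 detected probes that disagreed. The brightest gave -0.04, from 193 and 268, another gave 0.51, from 176 and 193, and the third was detected in shLY6E only. PLK2 and PLK3, stress-responsive kinases of the polo-like family, were not detected on either array, with detection p-values of 0.097 and 0.50 for PLK2 and 0.73 and 0.16 for PLK3 in shLY6E and shCtrl.

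All 8 genes of apoptosis were detected on both arrays, and 1 of them was at least 1.5-fold apart. TP53I3, also called PIG3, an oxidoreductase tied to oxidative stress in cell death, had intensities of 116 in shLY6E and 175 in shCtrl. Its log2 levels were 5.51 and 6.14, a difference of -0.64 or 1.56-fold lower, and the gene's other probe was not detected. BBC3 and APAF1, the members described next, act in the mitochondrial death pathway and showed smaller values. BBC3, which encodes the BH3-only protein PUMA, had intensities of 150 and 182 and a difference of 0.21; with median scaling it was -0.17, or 0.25 relative to the median of all genes. APAF1, the core of the apoptosome, stood at 298 and 492 with a difference of -0.25. PERP, a membrane protein of p53-dependent death and of desmosomes, and PHLDA3, a repressor of AKT, were close to the detection limit, with differences of 0.33 and 0.34. AEN, a nuclease, and EI24, a membrane protein of the endoplasmic reticulum, gave 0.03 and 0.15, and TRIAP1, which protects cells from apoptosis, gave -0.17.

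The 4 genes of DNA repair and nucleotide supply split. RRM2B, the p53-inducible small subunit of ribonucleotide reductase, had intensities of 198 in shLY6E and 204 in shCtrl, log2 levels of 7.22 and 6.58, and a difference of 0.64 or 1.56-fold higher. RRM2B lay inside 1.5-fold without background correction, at 1.27-fold, with an offset of 50, at 1.41-fold, and with median scaling, at a log2 difference of 0.23, or 0.65 relative to the median of all genes. DDB2, which recognises ultraviolet damage in chromatin, was detected in shCtrl only, at 150 against 106 in shLY6E, and was at least 1.51-fold lower. XPC, which acts beside DDB2 as a damage sensor of nucleotide excision repair, stood at 369 and 530 with a difference of 0.01. POLH, a polymerase that copies past ultraviolet lesions, was detected in shLY6E only with intensities of 107 and 119, and its bound of 0.02 gave no measurable fold. The DDB2 intensity in shLY6E lay just short of detection, with a detection p-value of 0.014.

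Among the metabolic genes, the sestrins differed from each other. SESN2, a leucine sensor that restrains mTORC1, was detected in shLY6E only, at 120 against 128 in shCtrl, and was at least 1.54-fold higher; its detection p-value in shCtrl was 0.012. That bound was 1.14-fold without background correction and 1.27-fold with an offset of 50, and the log2 bound was 0.39 with median scaling, or 0.81 relative to the median of all genes. Its deposited intensity was lower in shLY6E, the array with the lower median intensity over all probes, 97.5 against 116. SESN1, its p53-responsive relative, had intensities of 301 and 424 and a difference of 0.03. TIGAR, a fructose bisphosphatase that diverts sugar from glycolysis, stood at 106 and 147 with a difference of -0.53, just short of 1.5-fold lower. In shLY6E TIGAR stood at the edge of detection, with a detection p-value of 0.0091.

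The largest difference of the pathway was that of DRAM1. DRAM1, a lysosomal membrane protein that promotes autophagy, had a deposited intensity of 391 in shLY6E and 219 in shCtrl. The median intensity over all probes was 97.5 in shLY6E and 116 in shCtrl. The log2 levels of DRAM1 were 8.63 and 6.74, a difference of 1.89 or 3.70-fold, and it ranked 45 from the highest of 9364 genes. Under 9 other settings its difference ran from 1.26 to 1.89. TP53INP1, which also acts in autophagy and binds p53-activating kinases, moved the other way. Its intensities were 118 and 187 and its log2 levels 5.62 and 6.35, a difference of -0.73 or 1.66-fold lower, the lowest value of any member in the reported setting. Without background correction TP53INP1 was 1.22-fold lower and with an offset of 50 1.39-fold, and ZMAT3 was then lower than it. SPATA18, a mitochondrial quality factor also called MIEAP, was not detected on either array.

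ZMAT3, an RNA-binding zinc finger protein that regulates splicing, was read by 3 detected probes. The brightest stood at 3008 in shLY6E and 6255 in shCtrl, with log2 levels of 11.75 and 12.40 and a difference of -0.64, or 1.56-fold lower. The other RefSeq-based probe stood at 258 and 344 with a difference of 0.10, and the probe designed on a cDNA clone at 133 and 204 with a difference of -0.50. The mean over the 3 probes was -0.35, so ZMAT3 was at least 1.5-fold lower by its brightest probe only. GDF15, a secreted stress cytokine, was not detected on either array, with detection p-values of 0.64 and 0.12.

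**Figure D3:**
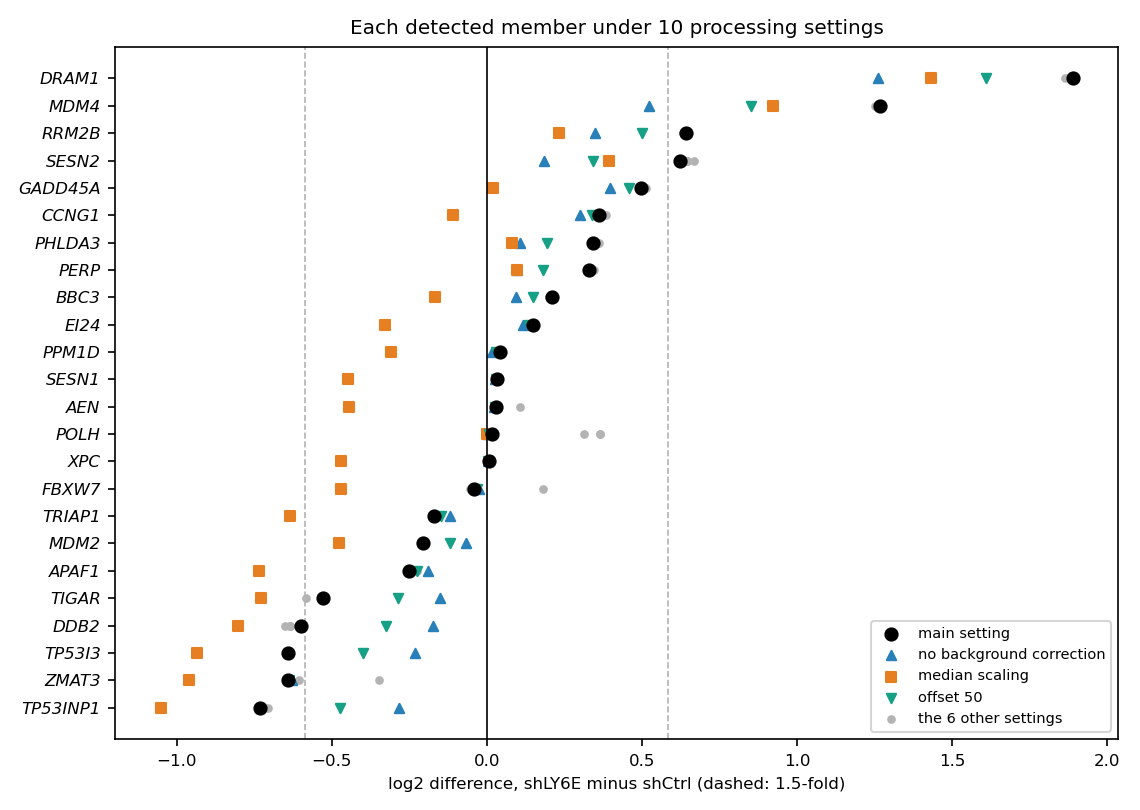
Log2 difference, shLY6E minus shCtrl, of each of the 24 detected members under 10 processing settings, ordered by the value in the reported setting (black). DRAM1 stays between 1.26 and 1.89. Without background correction MDM4, RRM2B and SESN2 of the higher genes fall inside 1.5-fold (dashed), as do DDB2, TP53I3 and TP53INP1 of the lower ones.

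Other known p53 targets were also spread on both sides of 0. Of 46 such genes 31 were detected, with a median of -0.0042, and 5 passed 1.5-fold upward and 2 downward. Those are 16.1% and 6.45% of the detected genes of the list, against 6.55% and 9.63% of all detected genes. IGFBP3, which binds insulin-like growth factors, was 8.73-fold higher, with intensities of 373 in shLY6E and 140 in shCtrl, and its other detected probe gave 2.90. NINJ1, a membrane protein of plasma membrane rupture, was 2.21-fold higher, PRDM1, a transcriptional repressor, 1.75-fold, and BID, a BH3-only death protein, 1.71-fold. The other probes of BID gave 0.18 and 1.06. CDKN1A, which encodes the cell cycle inhibitor p21 and was picked after its value was seen, was 1.68-fold lower, at 1107 against 2633. The other downward gene, PANK1, also picked afterwards, had a difference of -0.61, and its other detected probe gave -0.74. PANK1 lies on chromosome 10, whose 324 genes detected on both arrays had a median of -0.80. FAS was not detected on either array, and TNFRSF10D was detected in shLY6E only with a bound of 0.04.

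Of 31 regulators of p53 other than the members, 19 were detected, with a median of 0.12, and 3 passed 1.5-fold upward and 1 downward. Those are 15.8% and 5.26% of the detected regulators, against 6.55% and 9.63% of all detected genes. HIPK2, a kinase that phosphorylates p53 on the way to apoptosis, was 1.87-fold higher, and its other probe gave 0.99. TP53BP2, which directs p53 to death genes, was 1.80-fold higher. SIAH1, a ubiquitin ligase, was 1.54-fold higher by its brightest probe, and its other probes ran from -0.07 to 0.49. SIRT1, a deacetylase of p53, was detected in shCtrl only and was at least 2.07-fold lower; it lies on chromosome 10, whose 324 genes detected on both arrays had a median of -0.80 in this comparison. None of the members lies on chromosome 10. CHEK2, a checkpoint kinase, had a difference of -0.54, and its other probe gave -0.82. CDKN2A, whose product ARF inhibits MDM2, was not detected on either array.

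Genes that p53 is known to lower through p21 and the DREAM repressor complex had a median of -0.44, and 17 of 18 lay below 0, against 54.4% of all genes. Of these, 3 (16.7%) were at least 1.5-fold lower, against 9.63% of all genes. They were KIF20A, a kinesin of cytokinesis, at 1.73-fold, CDK1, the mitotic kinase, at 1.66-fold, and BUB1B, a spindle checkpoint kinase, at 1.52-fold. CDK1 lies on chromosome 10, and without it 2 of 17 genes (11.8%) were at least 1.5-fold lower, against 9.63% of all genes, with a median of -0.43. CENPA, the centromeric histone, was 1.49-fold lower. The median of this DREAM list was taken in the reported setting only. Any part of p53 or p21 in it was not tested, and CDKN1A, which encodes p21, was itself 1.68-fold lower. SESN2, GADD45A and GDF15 are also known targets of ATF4 and the integrated stress response, so that list is set beside them. Of its 14 genes 12 were detected with a median of 0.35, and 2 passed 1.5-fold upward and 2 downward. That is 16.7% in each direction, against 6.55% upward and 9.63% downward of all detected genes. ATF5, a related transcription factor, was 3.41-fold higher, and PPP1R15A, which restarts translation after stress, 1.73-fold. DDIT4, an mTORC1 inhibitor that lies on chromosome 10, was 1.72-fold lower, and VLDLR, a lipoprotein receptor, 1.71-fold lower.

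**Figure D4:**
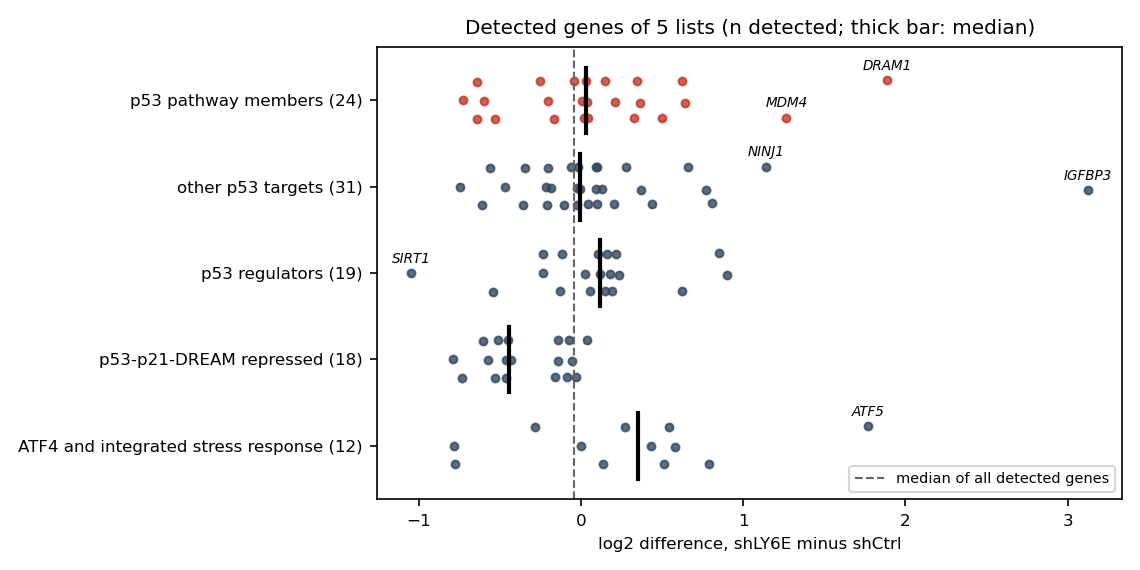
Log2 difference, shLY6E minus shCtrl, of the detected genes of 5 lists (number detected in brackets), with the median of each as a thick bar and that of all detected genes as a dashed line. The medians are 0.03 for the p53 pathway genes, -0.0042 for other targets, 0.12 for regulators, -0.44 for genes lowered through DREAM and 0.35 for the ATF4 list.

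DRAM1 and MDM4 were the members with the largest differences, so their standing above nearby genes was largely set by that choice. A cause shared within a region was not tested. The 10 nearest genes detected on both arrays around DRAM1 on chromosome 12 had a median of -0.18 and ran from -0.52 for WASHC3 to 0.79 for CHPT1. Those around MDM4 on chromosome 1 had a median of -0.18 and ran from -0.92 for SOX13 to 0.81 for SLC45A3. Around TP53INP1 the neighbours' median was -0.10, around ZMAT3 0.05 and around TP53I3 0.03. GADD45A, at 0.50, had neighbours with a median of 0.34 that reached 1.32 for SGIP1. RRM2B, at 0.64, had neighbours with a median of 0.12 that reached 0.69 for NACA4P, and TIGAR, at -0.53, had neighbours with a median of 0.01 that went down to -0.77 for FERRY3. The other detected members on chromosome 12, MDM2, APAF1, TRIAP1 and TIGAR, all lay below 0, between -0.53 and -0.17.

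**Figure D5:**
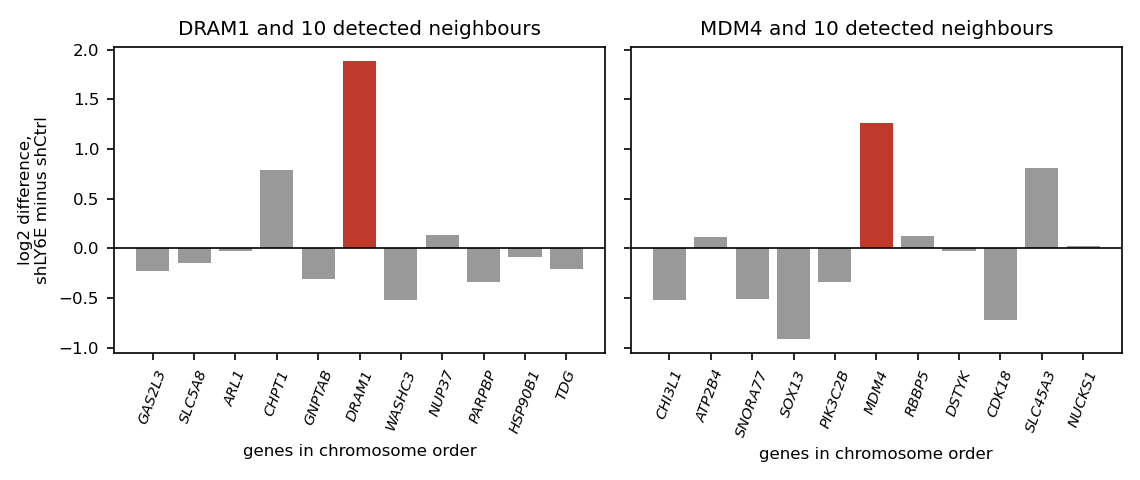
Log2 difference, shLY6E minus shCtrl (bars from 0), of DRAM1 and MDM4 (red) and of the 5 nearest genes on each side detected on both arrays (grey), in chromosome order. The red bars stand at 1.89 and 1.27. DRAM1 and MDM4 were shown because they had the largest differences of the members.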

How the data were processed

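Total RNA of 2 THP-1 derivatives was labelled with biotin for Illumina arrays, per the labels' protocols. The deposited unnormalized table gives linear intensities and detection p-values, per the file headers; each detection column follows the ranks of the intensity column before it. A second deposited table holds the authors' processed intensities, which from their values are linear, background-subtracted and on a common distribution. Scanning and normalization by the authors were not given in the sources used here. The tables had 0 columns of no sample.

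Intensities were corrected with limma's normexp model through the detection p-values (offset 16), quantile-normalized and expressed as log2 (limma 3.58.1 in R 4.3.3; then Python 3.11.15, numpy 2.4.6, pandas 2.3.3, matplotlib 3.10.9). Probes took the single symbol of the platform annotation (30113 probes; 8 had several symbols, 17200 none listed). The brightest detected probe stood for its gene. A gene detected on 1 array only has a bound, written "at least N-fold": the dim side was set to its own value or to that array's lowest detected intensity, whichever was higher. The offset shrinks differences of dim genes. Precision is limited by the number of arrays. The steps were tested on simulated arrays in which only genes well above background were changed. That test does not cover dim genes such as MDM4, SESN2, DDB2 and TIGAR.

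The members and lists were chosen with earlier results of these data known. The text names all 30 members, LY6E and, per other list, up to 4 genes with the largest differences and up to 2 with the largest bounds. CDKN1A, PANK1, FAS, CDKN2A, the neighbouring genes and the half-site pairs were picked after their values were seen. The 9 alternatives were leaving out background correction, median scaling, an offset of 50, a looser detection threshold of 0.05, requiring detection on both arrays, dropping the detection filter, averaging a gene's probes, using measured differences instead of bounds, and the authors' processed values with negative values set to 0 and 16 added.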

Additional observations from a re-analysis of the deposited data

How the results depend on the processing

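Without background correction 1 member was at least 1.5-fold higher (DRAM1) and 1 lower (ZMAT3), and LY6E stood at -1.50. Each is 4.17% of the detected members, against 2.64% upward and 3.14% downward of all genes. With an offset of 50 the counts were 2 and 1, or 8.33% and 4.17%, against 4.20% and 5.72% of all genes. Both settings shrink differences by construction. With median scaling the counts were 2 and 7 of 24, against 2.43% and 32.9% of all genes, LY6E was at -2.32, and list medians became -0.39 for the members, -0.36 for other p53 targets and -0.30 for p53 regulators, beside a shift of -0.38 in the median of all genes; relative to the median of all genes, the members stood at 0.03. With the authors' processed values the counts were 4 and 4, or 16.7% each, against 6.56% and 9.78% of all genes. Of the 24 detected members, 8 changed sign or reached 0 with median scaling, all of them within 1.5-fold in the reported setting; relative to the median of all genes, 3 did. DRAM1, MDM4, RRM2B, GADD45A, PERP and PHLDA3 were above 0 under all 9 alternatives, and SESN2 under the 8 that gave it a value. APAF1, MDM2, TIGAR, TP53I3, TP53INP1, TRIAP1 and ZMAT3 were below 0 under all 9. All settings reprocess the same arrays. Background limits dim genes such as MDM4, RRM2B, SESN2, DDB2 and TIGAR. No paired analysis was possible because there was 1 array of each derivative.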

Other observations

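Some less bright probes of the members were not detected on either array, among them those of MDM2, CCNG1, RRM2B and TP53INP1, with measured differences of -0.30, 0.26, 0.01 and -0.19. The undetected probe of RRM2B therefore gives no second reading of its 0.64. Across the 21 members detected on both arrays, the Spearman correlation between the control level and the difference was -0.12, and it was -0.11 across all 9364 such genes. It is across genes, which share the 2 arrays and are not independent replicates, and the control level enters both quantities.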
